A study of Mus musculus with 6 samples.

Results

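The genes described here are the SR and hnRNP splicing regulators with the PTB, CELF, MBNL and RBFOX proteins. They were chosen by symbol from the deposited count table: every gene named Srsf, Ptbp or Celf with a number, every gene whose name begins with Hnrnp, and Tra2a, Tra2b, Mbnl1, Mbnl2, Rbfox2 and Srrm2. This gave 43 of the 11881 genes in the table, and all 43 passed the filter on low counts, which left 10832 genes to test. They comprise 10 SR proteins, 3 SR-related proteins, 20 hnRNP genes, 3 PTB genes and 7 genes of the CELF, MBNL and RBFOX group. RNA was sequenced from microglia of the hippocampus, sorted as CD11b+CD45low cells, of male mice aged 17 to 21 postnatal days. The 3 libraries labelled WT came from wild-type mice, and the 3 labelled Mll5+/- from mice with 1 disrupted copy of Mll5, now called Kmt2e. The labels number the libraries separately but do not give the disrupted part of the gene, the litters or the strain. The question was how the levels of these regulators compare between the genotypes, and where Ptbp3 stands among its relatives.

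Splicing regulators decide which exons of a pre-mRNA are kept. SR proteins carry a domain rich in arginine and serine, bind exonic enhancers and help recruit the spliceosome, and kinases of the SRPK and CLK families control them by phosphorylation. hnRNP proteins package nascent RNA and often oppose SR proteins by silencing exons. PTB proteins bind pyrimidine-rich RNA and mostly repress exons: Ptbp1 is broadly expressed, Ptbp2 is best known from neurons, and Ptbp3 from blood cells. Many of these genes limit their own output by splicing in an exon that sends the transcript to decay, and counts per gene cannot show that.

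Library totals ran from 21075570 to 29730400 counts. Levels are given as CPM, counts scaled to a common library size with TMM factors, and a floor of 3 counts lies at 0.104 to 0.142 CPM. Kmt2e had 480, 378 and 688 CPM with WT labels and 648, 298 and 513 CPM with Mll5+/- labels (log2 fold change -0.08, 95% interval from -0.79 to 0.63). A lower dose of the gene was not visible in its count, and genotypes are given as labelled: libraries are written WT 1 to 3 and Mll5+/- 1 to 3 after those labels. All 14 microglial markers looked at were present, and their sum was 11750 to 16600 CPM for WT and 9870 to 11450 CPM for Mll5+/-. These sums were apart through P2ry12, a purine receptor of microglia, at 4269, 1366 and 5499 against 1115, 1232 and 1087 CPM (DESeq2 adjusted p = 0.0343), and the other 13 markers summed to 9522 to 11100 against 8784 to 10220 CPM, which overlap. Of the 14 log2 fold changes 5 were positive (higher with Mll5+/- labels) and 9 negative (median -0.02). Levels did not overlap for 2 of the 14 (14.3%, beside 9.32% of all tested genes), 1 higher and 1 lower, the lower being P2ry12. Of 18 neuron markers 9 were in the table (299 to 432 against 276 to 388 CPM in sum), and Rbfox3, Syt1, Tubb3 and Slc17a7 were not. Of 12 astrocyte markers 8 were listed (400 to 575 against 268 to 559 CPM in sum, most of it Slc1a3). Of these 8, 4 had positive and 4 negative log2 fold changes (median -0.05). Gja1 (22.7, 23.2 and 28.6 against 3.51, 6.71 and 1.75 CPM, DESeq2 adjusted p = 0.0343) and Plpp3 (15.5, 11.5 and 23.0 against 3.39, 4.39 and 5.62 CPM, edgeR unadjusted p = 0.0131) were lower without overlap. They were the 2 of 8 without overlap (25%, beside 9.32% of all tested genes). In edgeR 0 of the 8 passed an adjusted p of 0.05, and in DESeq2 1 did, Gja1. The sums of the 6 of 12 oligodendrocyte markers listed (140 to 185 against 98.2 to 135 CPM) and of the 6 of 7 border macrophage markers (265 to 328 against 369 to 692 CPM) did not overlap. Taken singly, 0 of 5 tested oligodendrocyte and 0 of 5 tested border macrophage markers were without overlap. The sums of 5 of 8 endothelial and mural markers (14.28 to 30.95 against 16.96 to 23.35 CPM) and of 4 of 8 monocyte and neutrophil markers (195.7 to 255.5 against 222.5 to 277.9 CPM) overlapped. In DESeq2 1 endothelial or mural marker passed an adjusted p of 0.05, and 0 of 8 lymphocyte markers were listed. The part of these markers in the results below was not tested, and in bulk RNA fewer cells of a type and less RNA per cell cannot be told apart.

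No splicing regulator passed the test, and most estimates lay slightly above 0, toward the libraries labelled Mll5+/-. Libraries of the same genotype differed widely, with a common biological coefficient of variation of 80.4% in edgeR. The lack of passing members therefore does not show that levels were equal. Of the 43 members 34 had a positive log2 fold change (79.1%), against 51.8% of all 10832 tested genes. Their median log2 fold change was 0.21, against 0.02 over all tested genes, and members ranged from -0.90 (Hnrnpa3) to 1.94 (Hnrnph2). Lists tied to RNA quality and handling leaned as well: 11 of 13 mitochondrially encoded genes had negative estimates (median -0.25, in sum 25520 to 29790 CPM in WT 1 to 3 and 20830, 18500 and 35410 CPM in Mll5+/- 1 to 3), and 7 of the 8 tested genes of early response to dissociation had positive ones (median 0.37, in sum 82.2 to 144 against 121 to 145 CPM). Their part in the members' estimates was not tested. In edgeR's quasi-likelihood test 0 members passed an adjusted p of 0.05, as did 0% of all tested genes, and DESeq2 and limma-voom also passed 0 members (DESeq2 passed 0.25% of all genes, limma-voom 0%). Unadjusted, 2 members were under 0.05 in edgeR (4.65%, beside 2.88% of all genes), namely Ptbp3 and Srsf2, both higher (1.36% of all genes were under 0.05 and higher, 1.52% under 0.05 and lower). DESeq2 had 1 member under an unadjusted 0.05 (beside 4.87% of all genes) and limma-voom 3 (beside 4.24%). Levels did not overlap between genotypes for 7 members (16.3%, beside 9.32% of all genes): Ptbp3, Srsf2, Srsf5, Srrm2, Tra2b and Hnrnpa2b1 were higher in all 3 libraries labelled Mll5+/-, and Srsf4 was lower. Of all genes 4.68% were higher and 4.64% lower without overlap. With DESeq2 size factors 4 of the 7 members remained (9.30%, beside 9.31% of all genes), and Srsf5, Srrm2 and Tra2b overlapped.

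The median deviation of the 43 members from their mean over libraries, on the log2(CPM + 0.5) scale, was 0.02, -0.12 and -0.05 in WT 1 to 3 and 0.10, 0.16 and 0.05 in Mll5+/- 1 to 3. The genotypes thus did not overlap in this median, but the gap between WT 1 (0.02) and Mll5+/- 3 (0.05) was small beside the spread within genotypes (SD 0.063). The median log2 fold change of the members was 0.10 without WT replicate 3, 0.12 without Mll5+/- replicate 3 and 0.12 with limma-voom. Over all 10832 genes the median deviations ran from 0.00 to 0.08.

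**Figure D1:**
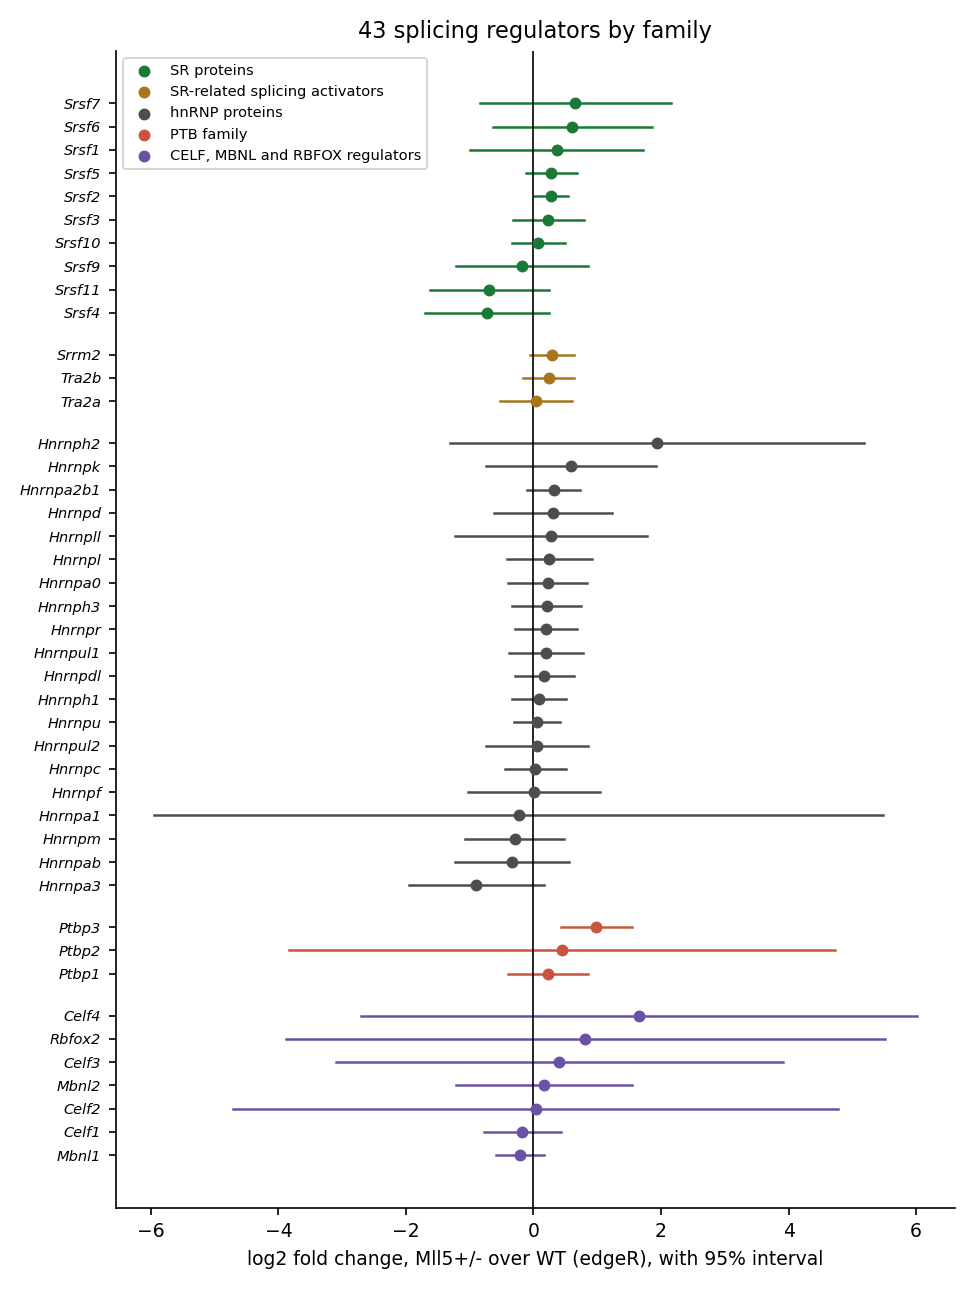
Log2 fold change of the 43 members, labelled Mll5+/- over labelled WT, on the x axis, with 1 line per gene grouped by family. Points are edgeR estimates and bars are 95% intervals. The intervals of Ptbp3 (0.43 to 1.54) and Srsf2 (0.01 to 0.54) leave out 0, and those of Hnrnpa1, Hnrnph2, Ptbp2, Celf2, Celf3, Celf4 and Rbfox2 are the widest.

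Of the PTB genes, Ptbp3 was without overlap between genotypes, and Ptbp1 and Ptbp2 overlapped. The 3 genes encode proteins of the same plan, but their coding sequences differ enough to be counted separately. The longest coding sequences of Ptbp3 and Ptbp1 in GENCODE release M21 (GRCm38) were identical at 72.8% of 1638 aligned bases, those of Ptbp3 and Ptbp2 at 69.6% of 1586, and those of Ptbp1 and Ptbp2 at 70.4% of 1586. The longest exact run that Ptbp3 shares is 20 bases with Ptbp1 and 17 bases with Ptbp2. No run of 50 bases is shared between transcripts of any 2 of the 43 members, so a read of 50 or more matching bases has 1 source among them. The 90-base stretch in which Ptbp3 is most like both relatives is printed to show how far they can be told apart, 5′ to 3′ on the coding strand, with bases that differ from Ptbp3 in capitals (coding bases 595 to 684 of Ptbp3, 592 to 681 of Ptbp1 and 586 to 675 of Ptbp2).
Ptbp3: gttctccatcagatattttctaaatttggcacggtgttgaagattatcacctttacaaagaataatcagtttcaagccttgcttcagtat
Ptbp1: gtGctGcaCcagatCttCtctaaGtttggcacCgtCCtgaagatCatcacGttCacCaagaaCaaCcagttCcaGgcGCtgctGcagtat
Ptbp2: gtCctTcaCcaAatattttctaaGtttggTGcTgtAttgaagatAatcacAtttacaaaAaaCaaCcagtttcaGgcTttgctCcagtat
Even here Ptbp1 differs from Ptbp3 at 20 of 90 bases and Ptbp2 at 17, and the longest shared runs are 8 and 11 bases.

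Ptbp3, on chromosome 4 from 59471868 to 59549364 (mm39), had 147, 101 and 93.6 CPM in WT 1 to 3 and 203, 218 and 255 CPM in Mll5+/- 1 to 3. All 3 libraries labelled Mll5+/- were above all 3 labelled WT. The means were 114 ± 28.8 and 225 ± 26.8 CPM (SD, n = 3 each). Its estimate was 0.99 on the log2 scale (SE 0.245, edgeR unadjusted p = 0.00314, adjusted p = 0.9995), and DESeq2 gave an adjusted p = 0.147. The estimate stayed between 0.86 and 1.2 over 12 alternatives, with an unadjusted p between 0.000916 and 0.0168 (edgeR, DESeq2 and limma-voom). Of its 50-base runs 1.96% occur in another gene, the pseudogene 1700018M17Rik. Its difference was already known from these libraries when the regulators were chosen, so its place among them is no separate evidence.

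Ptbp1, on chromosome 10 from 79690261 to 79700605, had 52.9, 48.1 and 60.9 CPM in WT 1 to 3 and 66.6, 56.6 and 66.6 CPM in Mll5+/- 1 to 3. Its genotypes overlapped, and the log2 fold change of 0.23 (SE 0.277) had an interval from -0.40 to 0.86. Of its 50-base runs 18.3% also occur in transcripts of other genes, the most in the antisense gene Gm17134. The Ptbp3 to Ptbp1 ratio, per kilobase of exon, was 1.76, 1.33 and 0.974 in WT 1 to 3 and 1.93, 2.44 and 2.42 in Mll5+/- 1 to 3. The ratio was higher in all 3 libraries labelled Mll5+/-, by 0.78 on the log2 scale on average. It rests on the same Ptbp3 values and is given as a description.

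Ptbp2, on chromosome 3 from 119512391 to 119577453, had 237, 36.4 and 4.996 CPM in WT 1 to 3 and 33.8, 29.8 and 315 CPM in Mll5+/- 1 to 3. It was high in 1 library of each genotype, WT 1 and Mll5+/- 3, and its log2 fold change of 0.44 (SE 1.65) says nothing of a direction. None of its 50-base runs occurs in another gene. The summed neuron markers were 330 and 388 CPM in the libraries where Ptbp2 was high and 276 to 432 CPM in the others. Among them Snap25 (32.2 CPM) and Sox11 (34.6 CPM) were highest in Mll5+/- 3. Nova1 was instead highest in WT 3 (132 CPM), Elavl4 in Mll5+/- 2 (53.1 CPM) and Rbfox1 in WT 2 (11.55 CPM). The other neuron markers listed are not given singly, and the part of neuronal RNA in the Ptbp2 levels was not tested. Per kilobase, Ptbp2 made up 45.6% and 41.6% of the summed PTB level in WT 1 and Mll5+/- 3 and 2.10% to 14.4% elsewhere. Ptbp3 made up 34.7%, 48.9% and 48.3% in WT 1 to 3 and 60.5%, 65.8% and 41.3% in Mll5+/- 1 to 3, and the shares overlapped, with Mll5+/- 3 below WT 2 and WT 3.

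**Figure D2:**
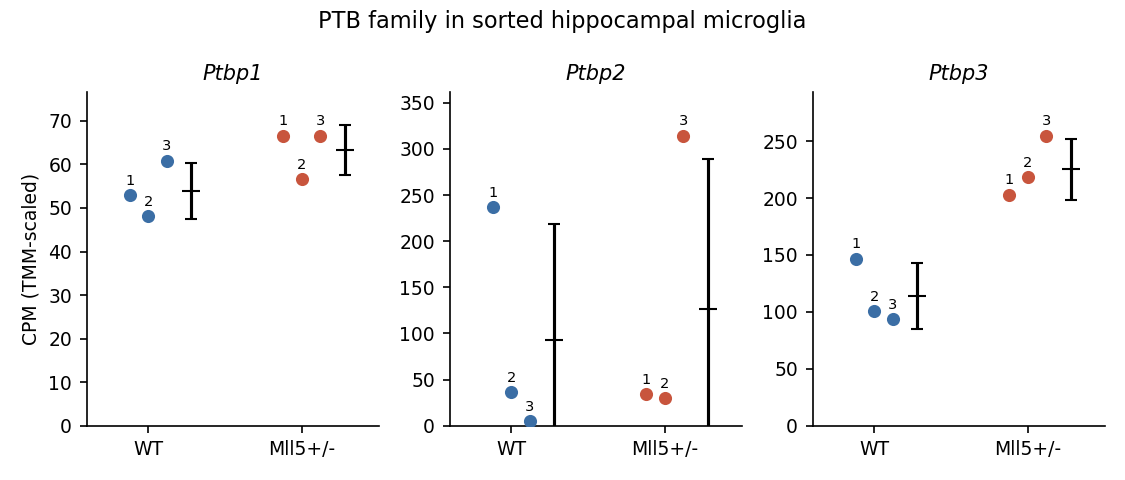
CPM of Ptbp1, Ptbp2 and Ptbp3 on linear axes that start at 0, with 1 numbered point per library and the mean with its SD (bars cut off at 0). Ptbp3 lies between 93.6 and 147 CPM in WT 1 to 3 and between 203 and 255 CPM in Mll5+/- 1 to 3, while Ptbp1 and Ptbp2 overlap.

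Of the 10 SR proteins 7 had positive and 3 negative log2 fold changes (median 0.25), and 1 was under an unadjusted 0.05 in edgeR (10%, beside 2.88% of all genes). That gene was Srsf2, an SR protein that binds exonic enhancers and also acts in transcription elongation, on chromosome 11 from 116740727 to 116743920. It had 6352, 5348 and 5413 CPM in WT 1 to 3 and 6817, 7112 and 6771 CPM in Mll5+/- 1 to 3. All 3 libraries labelled Mll5+/- were higher, but WT 1 lay closer to them than to the other libraries labelled WT. Its estimate was 0.27 on the log2 scale (SE 0.118, edgeR unadjusted p = 0.0455, adjusted p = 0.9995), and over 12 alternatives the unadjusted p ran from 0.0142 to 0.205 and stayed under 0.05 in 4. Srsf2 alone took 0.525% to 0.636% of all counts in WT 1 to 3 and 0.680% to 0.722% in Mll5+/- 1 to 3. Its span lies within that of Mettl23 in the deposited coordinates, and 20.7% of its 50-base runs occur in other genes' transcripts. Mettl23 had 324 to 949 counts per library against 138968 to 202573 for Srsf2.

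Srsf5, an abundant SR protein, had 361, 410 and 449 CPM in WT 1 to 3 and 451, 557 and 470 CPM in Mll5+/- 1 to 3, groups that are apart by the gap from 449 to 451 alone (log2 fold change 0.28, SE 0.176). Srsf4 had 24.8, 24.7 and 26.6 CPM in WT 1 to 3 and 19.6, 14.96 and 11.4 CPM in Mll5+/- 1 to 3. It was the 1 member lower in all libraries labelled Mll5+/- (log2 fold change -0.73, SE 0.428, edgeR unadjusted p = 0.124), and 39.5% of its 50-base runs are shared with the processed transcript Gm12992. Srsf10, which can act as a splicing repressor, had 600, 686 and 498 CPM against 663, 679 and 541 CPM and overlapped (log2 fold change 0.08, SE 0.184).

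The other 6 SR proteins overlapped between genotypes. Srsf11 was high in 1 library, with 847 CPM in WT 1 and 237 to 415 CPM in the other 5, and had the second lowest estimate of the family (log2 fold change -0.69, SE 0.406). Srsf1, the founding SR protein, ran from 13.1 CPM in WT 3 to 76.5 CPM in Mll5+/- 3. Srsf6 and Srsf7 were both lowest in Mll5+/- 1 (10.1 and 8.13 CPM) and highest in Mll5+/- 3 (39.3 and 44.8 CPM), so libraries of 1 genotype marked the ends of their range. Srsf9 had 41.2 CPM in Mll5+/- 1 and 95.9 to 161 CPM in the other 5. Srsf3, a small SR protein that also serves mRNA export, had 293 to 513 CPM in WT 1 to 3 and 391 to 513 CPM in Mll5+/- 1 to 3.

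The 3 SR-related proteins varied little between libraries, by a median of 1.46-fold from lowest to highest. Srrm2, a large scaffold protein of nuclear speckles, had 1313, 1336 and 1466 CPM in WT 1 to 3 and 1634, 1482 and 1912 CPM in Mll5+/- 1 to 3. The groups did not overlap (log2 fold change 0.29, SE 0.15, edgeR unadjusted p = 0.0864). Tra2b, a sequence-specific splicing activator, had 342, 325 and 290.5 CPM against 372, 342 and 417 CPM, apart by 341.7 in WT 1 against 342.4 in Mll5+/- 2 alone (log2 fold change 0.24, SE 0.175). Its paralog Tra2a had 154, 149 and 98.9 CPM against 149, 119 and 145 CPM and overlapped (log2 fold change 0.04, SE 0.251).

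Of the 20 hnRNP genes 16 had positive and 4 negative log2 fold changes (median 0.18), and 0 were under an unadjusted 0.05 in edgeR. Hnrnpa2b1, which binds RNA for packaging and transport and recognises methylated transcripts, was the 1 hnRNP gene without overlap (5% of the 20, beside 9.32% of all genes). It had 420.3, 553 and 617 CPM in WT 1 to 3 and 646, 665 and 670 CPM in Mll5+/- 1 to 3 (log2 fold change 0.32, SE 0.183, edgeR unadjusted p = 0.118). The 3 libraries labelled Mll5+/- lay close together, and the spread was among those labelled WT.

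Hnrnpr, the hnRNP gene of highest CPM, had 1128, 1218 and 756 CPM in WT 1 to 3 and 1316, 982 and 1263 CPM in Mll5+/- 1 to 3 (log2 fold change 0.20, SE 0.212). Hnrnpu, a nuclear matrix-associated RNA-binding protein also called SAF-A, had 574, 573 and 626 CPM against 565, 686 and 595 CPM (log2 fold change 0.06, SE 0.159). It varied least of the 43 members, by 1.21-fold from the lowest to the highest library. Hnrnpc, which binds uridine tracts, and Hnrnph1, which binds G runs, also varied little, by 1.27-fold and 1.28-fold.

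Hnrnpa3 had the lowest estimate of all members, with 75.01, 123 and 40.2 CPM in WT 1 to 3 and 28.4, 62.9 and 36.7 CPM in Mll5+/- 1 to 3. The groups overlapped (log2 fold change -0.90, SE 0.468, edgeR unadjusted p = 0.0886, limma-voom unadjusted p = 0.0467), and 27.1% of its 50-base runs occur in transcripts of 46 other genes, most of all the processed pseudogene Gm5641. Hnrnpk, a KH-domain protein, fell into a high and a low set that did not follow genotype: 542, 522 and 661 CPM in WT 2, Mll5+/- 1 and Mll5+/- 2, and 174 to 213 CPM in the other 3. The other hnRNP genes with negative estimates were Hnrnpm (-0.30), Hnrnpab (-0.34) and Hnrnpa1, all with overlapping genotypes. The 9 hnRNP genes not yet named (Hnrnpa0, Hnrnpd, Hnrnpdl, Hnrnpf, Hnrnph3, Hnrnpl, Hnrnpll, Hnrnpul1 and Hnrnpul2) had log2 fold changes from 0.01 (Hnrnpf) to 0.30 (Hnrnpd), all positive and all with overlapping genotypes. Of these Hnrnpll, a regulator of CD45 splicing in lymphocytes, varied most, by 6.86-fold from 6.39 CPM in Mll5+/- 2 to 43.9 CPM in Mll5+/- 3. For Hnrnpf 61.9% of the 50-base runs occur in other genes, the highest share of the members.

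Hnrnpa1 and Hnrnph2 swung most among the hnRNP genes. Hnrnpa1, a general exon silencer on chromosome 15 from 103148859 to 103153382, had 5878, 64 and 17976 counts in WT 1 to 3 and 5720, 14592 and 82 counts in Mll5+/- 1 to 3. In CPM these were 246, 2.46 and 624 against 226, 512 and 3.88, so WT 2 and Mll5+/- 3 held almost none of a gene that was abundant in the other 4. Its log2 fold change of -0.23 has an SE of 2.16. Of its 50-base runs 28.2% occur in transcripts of 20 other genes, most of all the processed pseudogene Gm10052. The part of shared sequence in this swing was not tested.

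Hnrnph2, an X-linked relative of Hnrnph1 on chromosome X from 133501928 to 133507809, had 74.0, 27.8 and 11.4 CPM in WT 1 to 3 and 190.3, 235 and 8.27 CPM in Mll5+/- 1 to 3. Its log2 fold change of 1.94 was the highest of the members, but Mll5+/- 3 was the lowest library of all 6 (SE 1.29, edgeR unadjusted p = 0.188). Without Mll5+/- replicate 3, that lowest library, the estimate was 2.49, with an edgeR unadjusted p = 0.0136. This was the only 1 of 12 alternatives under 0.05. With any other library left out the estimate ran from 1.39 to 2.88, with an edgeR unadjusted p from 0.113 to 0.372.

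Of the CELF, MBNL and RBFOX genes 5 of 7 had positive estimates (median 0.17), 0 were under an unadjusted 0.05, and all overlapped between genotypes. Mbnl1, a muscleblind protein that switches exons during development, was the most abundant, with 1639, 1770 and 1793 CPM in WT 1 to 3 and 1485, 1797 and 1214 CPM in Mll5+/- 1 to 3 (log2 fold change -0.21, SE 0.169). Mbnl2 had 271, 292 and 58.5 CPM against 343, 171 and 186 CPM, with WT 3 low (log2 fold change 0.17, SE 0.584). Celf1 had 120 to 150 CPM in WT 1 to 3 and 85.6 to 148 CPM in Mll5+/- 1 to 3.

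Celf2, on chromosome 2 from 6544505 to 7401009, had 1031, 72.1 and 66.8 CPM in WT 1 to 3 and 1085, 48.3 and 69.1 CPM in Mll5+/- 1 to 3. Both genotypes thus held 1 high library (WT 1 and Mll5+/- 1), and the other 4 were at 72.1 CPM or less. The log2 fold change was 0.04 (SE 1.8), and 6.96% of its 50-base runs are shared, with the noncoding gene Gm26565. Celf3, Celf4 and Rbfox2 had the lowest levels. Celf3 ran from 0.115 to 6.90 CPM, Celf4 from 0 to 6.19 CPM and Rbfox2 from 0 to 2.64 CPM, and none separated the genotypes.

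**Figure D3:**
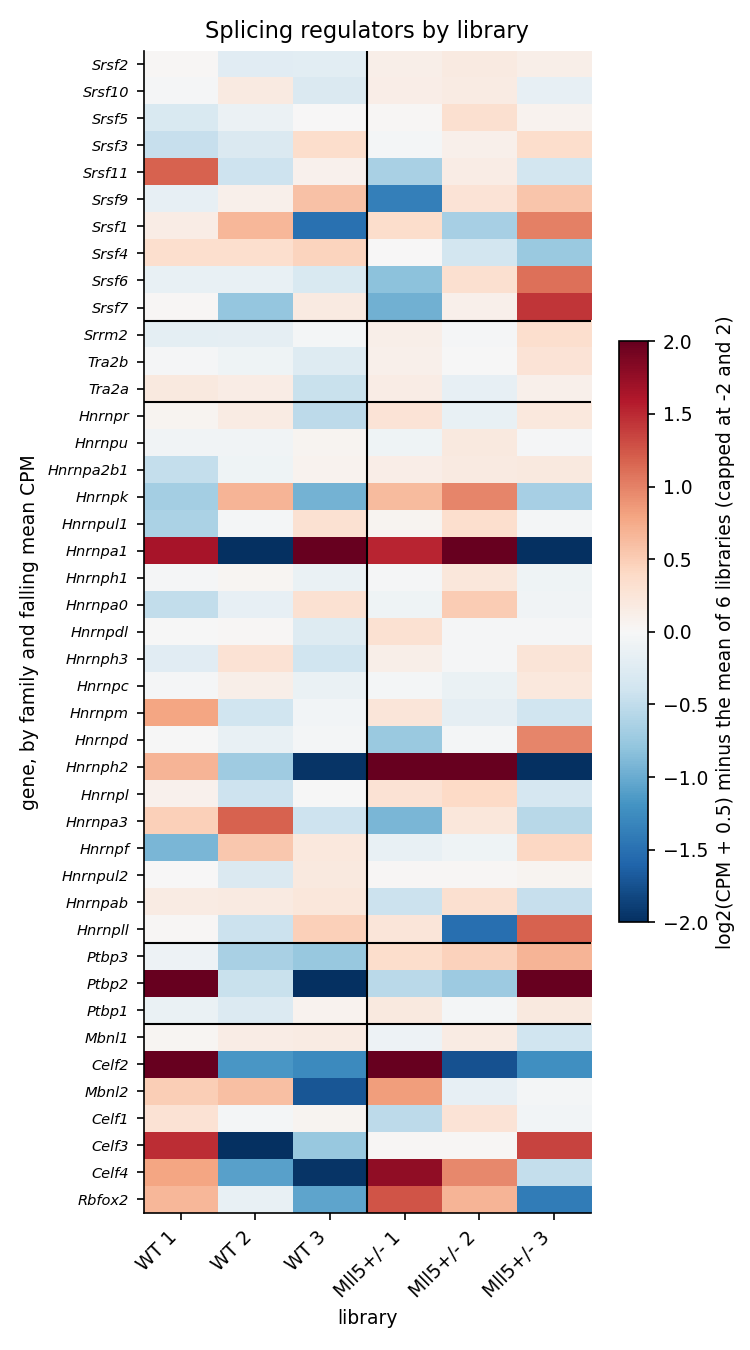
Level of each member (rows, by family and falling mean CPM) in each library (columns), as log2(CPM + 0.5) minus the gene's mean over 6 libraries, with colours capped at -2 and 2. Most rows are pale, and Hnrnpa1, Hnrnph2, Ptbp2, Celf2 and the low Celf3 and Celf4 carry dark cells.

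Over the 43 members the median ratio of the highest to the lowest library, on the CPM + 0.5 scale, was 2.01, against 3.58 over all tested genes and 1.94 over the 2444 tested genes with a mean CPM between 51.3 and 391, the middle of the members' range. Under 2-fold were 21 members (48.8%), against 53.4% of those 2444 genes. Of the 40 members with a mean of at least 10 CPM, 4 spread over 10-fold (10%), against 5.73% of the 2444 genes and 9.32% of all tested genes at that level. These were Hnrnpa1 (up to 624 CPM), Ptbp2 (315), Hnrnph2 (235) and Celf2 (1085).

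The high libraries differed from gene to gene. WT 1 and Mll5+/- 3 were high for Ptbp2, WT 1 and Mll5+/- 1 for Celf2, and Mll5+/- 1 and 2 for Hnrnph2, while WT 2 and Mll5+/- 3 were low for Hnrnpa1. WT 2 was in the lower set for all 4 (Ptbp2 36.4, Celf2 72.1, Hnrnph2 27.8 and Hnrnpa1 2.46 CPM). WT 3 was the lowest library for 13 of 43 members, against 2160 of all 10832 genes. Mll5+/- 3 was the highest for 12 members and Mll5+/- 2 for 11, against 2445 and 1665 of all 10832 genes. Members that share at least 10% of their 50-base runs with other genes (13 of 43) had a median spread of 2.28-fold, and the other 30 had 1.98-fold, with 2 over 10-fold in each set.

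**Figure D4:**
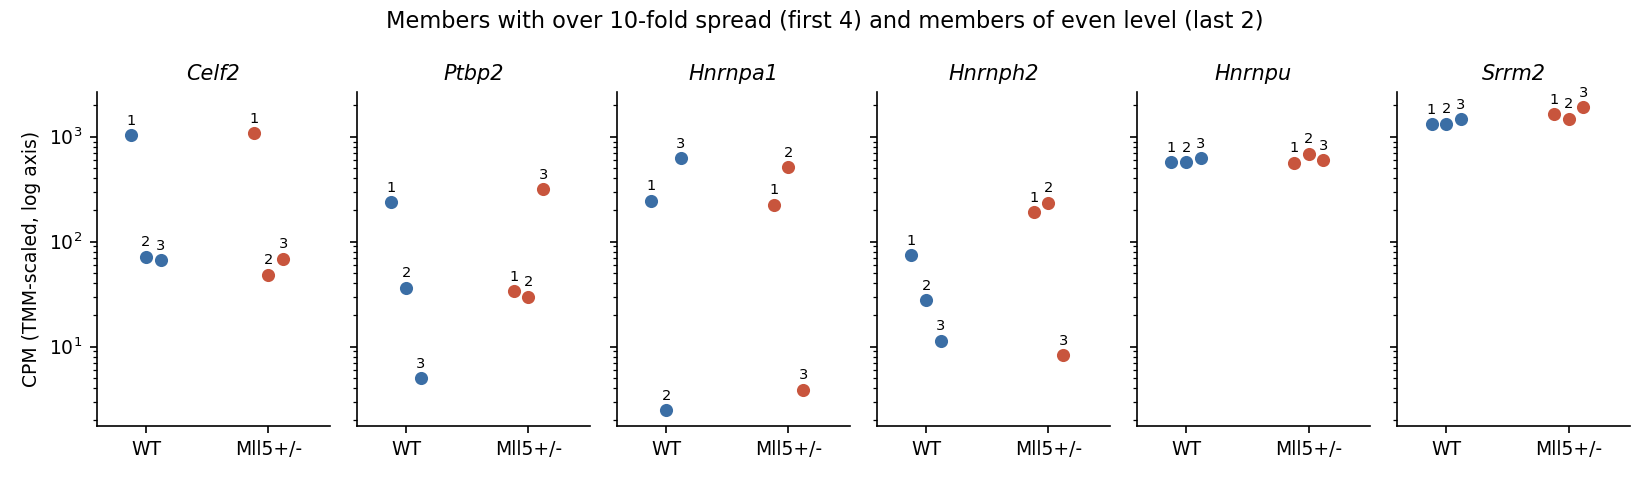
CPM on a log axis, by labelled genotype, for the 4 members that spread over 10-fold and for Hnrnpu and Srrm2, with 1 numbered point per library. Celf2 is at 1031 and 1085 CPM in 1 library of each genotype and at 72.1 CPM or less in the others, while Hnrnpu stays between 565 and 686 CPM.

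**Figure D5:**
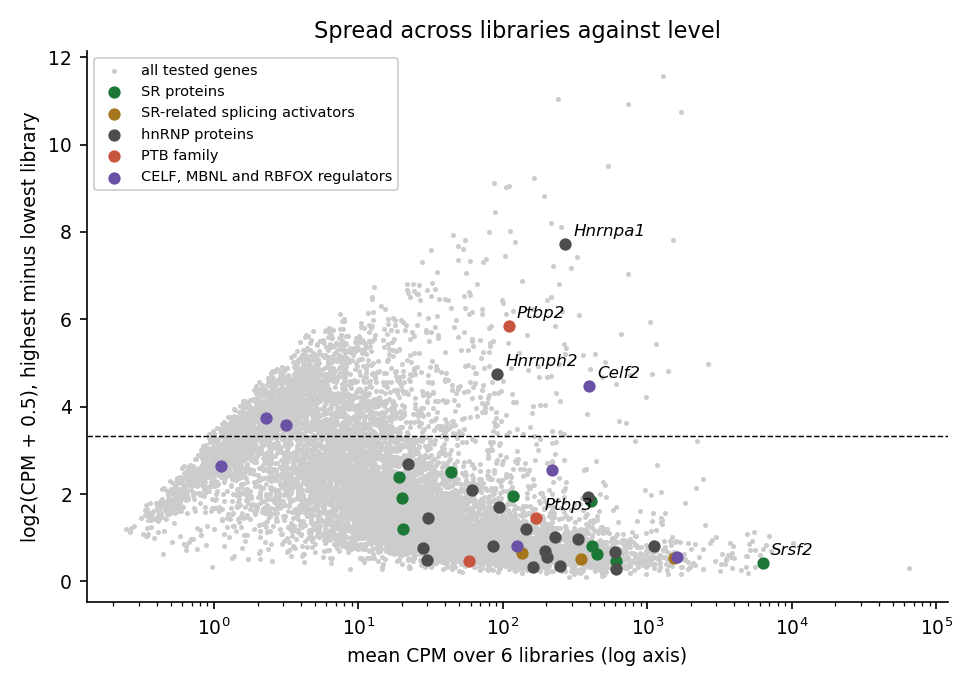
Spread of each gene over the 6 libraries (y axis, log2(CPM + 0.5), highest minus lowest) against its mean CPM (x axis, log scale), with tested genes in grey and members coloured by family. The dashed line marks 10-fold. Hnrnpa1, Ptbp2, Hnrnph2 and Celf2 lie above it with Celf3 and Celf4, whose means are low, and Srsf2 is the most abundant member with little spread.

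Levels between genes were compared per kilobase of exon, with lengths of all annotated exons of each gene. Srsf2 was by far the highest member, with 1928 CPM per kilobase in WT 1 to 3 and 2333 in Mll5+/- 1 to 3, which placed it 12th of 11597 genes with a length. Srrm2 followed with 107 and 131, Srsf5 with 102 and 124, and Hnrnpa2b1 with 80.5 and 100.3. Mbnl1, next after Srsf2 by CPM, came 6th per kilobase with 92.6 and 80.1. Within the PTB family Ptbp3 was highest on average (15.2 and 30.1), above Ptbp1 (11.4 and 13.4) and Ptbp2 (10.1 and 13.7), and Ptbp1 and Ptbp2 did not differ beyond the spread of Ptbp2. Celf3, Celf4 and Rbfox2 were lowest, each at 0.652 CPM per kilobase or less in both genotypes.

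Other parts of the splicing machinery were looked at by list. Of 10 SR protein kinases 6 had positive and 4 negative estimates (median 0.13), and 0 were under an unadjusted 0.05 in edgeR. Clk1, a kinase that phosphorylates SR proteins in the nucleus, had 1043, 977 and 1063 CPM in WT 1 to 3 and 1142, 1304 and 1411 CPM in Mll5+/- 1 to 3 (log2 fold change 0.32, SE 0.147, edgeR unadjusted p = 0.056). Srpk3 was lower without overlap, at 6.06, 2.19 and 1.70 against 0, 0.632 and 0.709 CPM. Clk1 and Srpk3 are named because their genotypes did not overlap (20% of the kinases, beside 9.32% of all genes), a choice made after their values were seen.

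Of 12 partners and targets of PTB proteins 8 were in the table, with 6 positive estimates (median 0.27) and 0 under an unadjusted 0.05. Raver1, a corepressor that binds PTB, had 20.2, 22.9 and 17.5 CPM against 25.1, 30.5 and 26.9 CPM, and Dlg4, whose splicing PTB proteins repress, had 121, 83.1 and 108 CPM against 75.4, 22.7 and 68.8 CPM. Both were without overlap (25% of the 8, beside 9.32% of all genes), in opposite directions, and were named after their values were seen. The log2 fold change was 0.45 for Raver1 (SE 0.384, edgeR unadjusted p = 0.274) and -0.90 for Dlg4 (SE 0.436, edgeR unadjusted p = 0.0687). The part of PTB proteins in the Dlg4 level was not tested. Matr3, a PTB partner, had 292, 180 and 111 CPM against 356, 217 and 354 CPM and overlapped, and it too was named after its values were seen.

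Of 61 other splicing regulators 55 were tested, with 29 positive and 26 negative estimates (median 0.02). In edgeR 2 were under an unadjusted 0.05 (3.64%, beside 2.88% of all genes), 1 in each direction. Levels did not overlap for 4 (7.27%, beside 9.32% of all genes), 2 higher and 2 lower. Cwc22, which brings the exon junction complex to the spliceosome, had 25.9, 26.7 and 23.3 CPM in WT 1 to 3 and 3.47, 12.99 and 2.60 CPM in Mll5+/- 1 to 3 (log2 fold change -1.99, SE 0.69, unadjusted p = 0.0185). Sugp2 had 36.5, 35.5 and 20.2 CPM against 73.7, 35.7 and 80.3 CPM, overlapping at 35.7 and 36.5 (log2 fold change 1.04, SE 0.416, unadjusted p = 0.0341). Among 82 core spliceosome genes 43 estimates were positive and 39 negative (median 0.04), with 0 under an unadjusted 0.05 in edgeR and 6 without overlap (7.32%, beside 9.32% of all genes), 2 higher and 4 lower (4.68% and 4.64% of all genes). The core machinery thus had 52.4% positive estimates, beside 51.8% of all genes and 79.1% of the 43 regulators. The difference between these lists was not tested.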

How the data were processed

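Raw counts per gene for 6 libraries were deposited by the authors as 1 table. The libraries were made from TRIzol RNA by SMART-seq amplification and a transposase library kit, per the labels' protocols. Gene coordinates are in the deposited table, on build mm39 per the submitters' processing notes, which also name FastQC, STAR, StringTie and DESeq2. No version, counting method or strandedness is stated there, so antisense and overlapping genes cannot be told apart. Genes were kept with filterByExpr (minimum count 10, minimum total 15), scaled by TMM and tested with edgeR's robust quasi-likelihood test in edgeR 4.0.16 (R 4.3.3; limma 3.58.1 for limma-voom). Fold changes are Mll5+/- over WT, and two-sided p-values were adjusted by Benjamini-Hochberg over 10832 genes (threshold 0.05). SEs come from the coefficient and its F statistic. No library is given as technical or biological beyond the number in its label, and replicates are numbered in sample order and pair nothing. The p-values weigh each difference against the spread between these libraries.

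Alternatives were DESeq2 1.42.0 on all listed genes, limma-voom, other scalings and filters, and leaving out each library. Wherever it is named, limma-voom was run with sample weights, a separate weight for each library. Exon lengths and runs of 50 bases shared between genes, on either strand, came from GENCODE mouse release M21, matched by symbol for 43 of 43 members, and coding sequences were aligned with Biopython 1.88. No coordinate of that release is given. A protein comparison of the PTB genes was planned and replaced by coding sequences.

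Values are given for the PTB genes, members under an unadjusted p of 0.05 or without overlap, the 3 of highest CPM per family, and members spread over 10-fold at a mean of at least 10 CPM. Others are given as ranges, and values of Srsf11, Hnrnpa3, Hnrnpk and the remaining members named singly were chosen after they were seen. The members and lists were chosen with earlier results of these data known.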

Additional observations from a re-analysis of the deposited data

How the results depend on the processing

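The number of genes past the threshold was 0 in edgeR and 29 with DESeq2 on all listed genes, and 0 to 2 when 1 library was left out. The number of members under an unadjusted p of 0.05 was 2 of 43. It was 1 without the low-count filter, 1 with the stricter filter and 1 with DESeq2. Among the 30 members sharing under 10% of 50-base runs (a set chosen after seeing the data) it was 1. When 1 library was left out, 1 to 3 members were under 0.05. Ptbp3 was among them in all 12 alternatives. The number of members without overlap was 7 of 43 (16.3%, beside 9.32% of all genes). It was 4 with DESeq2 size factors in edgeR (9.3%, beside 9.31%) and 4 with DESeq2 (9.3%, beside 9.09%). Among the 30 members sharing under 10% of such runs, a smaller base, it was 4. When 1 library was left out it was 6 to 13. It was 13 (30.2%) without WT replicate 3 and 13 without Mll5+/- replicate 2, but with 2 libraries against 3 more genes are without overlap anyway, 20.1% and 20.9% of all genes there and 17.2% to 20.9% over the 6 omissions. The median log2 fold change of the members was 0.21, and 0.12 with limma-voom and 0.10 to 0.24 when 1 library was left out. The number of members with a positive estimate was 34, and 26 (without Mll5+/- replicate 3) to 34 over the alternatives. Why these values moved was not tested.

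Of 216 recomputed log2 fold changes of 18 named members, 16 changed sign, and 11 members had no such change. With limma-voom Hnrnpa1 was 2.10 and Tra2a -0.047. When 1 library was left out, Celf2 ran from -2.74 to 2.52, Hnrnpa1 from -1.35 to 0.99, Hnrnpu from -0.043 to 0.10, Mbnl2 from -0.27 to 0.48, Ptbp2 from -1.55 (without Mll5+/- replicate 3) to 2.60, Srsf10 from -0.036 to 0.18 and Tra2a from -0.14 to 0.14. No paired analysis was possible because the replicate numbers only follow the order of the samples. Counts of amplified reads carry no molecular identifiers, and the intervals cover the spread between 6 libraries, which is widest for Hnrnpa1, Celf2, Rbfox2, Celf4, Ptbp2, Celf3 and Hnrnph2.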
